A study of Danio rerio with 6 samples.

Results

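The 9 zebrafish gene symbols studied here mark T lymphocytes and natural killer (NK) cells, or carry their signals: the co-receptor genes cd4-1 and cd8a, the kinase genes lck and zap70, the cytokine receptor genes il7r and il2rb, and the transcription factor genes tcf7, tbx21 and eomesa. They were chosen by name, with case ignored, and matched 10 of the 32266 rows of the deposited tables. Of the 9 symbols, 8 matched 1 row each. The symbol eomesa was matched through its synonym eomes, and the name table gives EOMES to 2 rows, ENSDARG00000006640 and ENSDARG00000104243, without saying which is which, so both are described under their identifiers.

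RNA-seq was made from whole kidneys of EK strain fish aged 2.5 months. The study set wild type fish against siblings of genotype runx1-/- carrying 1 allele (del25, hg97), named runx1 null in the plots and mutant in the text. Runx1 is a transcription factor needed for the emergence of blood stem cells. Each genotype gave 3 libraries, and each library pooled 3 kidneys, so that single fish cannot be seen. The labels give no sex. Between 16147770 and 30577328 expected counts were assigned to genes in a library. The pools, not single fish, are the replicates behind every p-value. The runx1 row itself had 8, 5 and 7 counts in wild type and 0, 5 and 5 in the mutants. It did not pass the filter on low counts, and a count over the whole gene does not show the del25 allele, so it checks no label.

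In fish the kidney is the adult organ of blood formation, so its RNA mixes renal tubules with blood cells of many kinds. A T cell reads antigen through its receptor together with a co-receptor, Cd4 or Cd8. Lck then phosphorylates the receptor chains, Zap70 docks on them and is activated, and adaptors such as Lat pass the signal on. T and NK cells also depend on cytokines that act through receptors sharing the common gamma chain, and on transcription factors that set their fate. In whole tissue, fewer cells of a type and less RNA per cell cannot be told apart.

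Transcripts of the co-receptors differed in how they were spread over the pools. cd4-1 (ENSDARG00000070668) encodes the co-receptor of helper T cells and is also found on some mononuclear phagocytes of zebrafish. It was at 1.06, 1.66 and 1.28 CPM (counts scaled to a library of 1000000, after TMM correction for library composition) in wild type pools 1, 2 and 3. In mutant pools 1, 2 and 3 it was at 1.02, 1.12 and 1.85 CPM. The groups overlapped throughout, and both means were 1.33 CPM (SD 0.304 in wild type and 0.457 in the mutants, n = 3 each). The log2 fold change of cd4-1 (mutant minus wild type) was -0.00 with a standard error (SE) of 0.45 and a 95% interval from -1.07 to 1.07 (edgeR adjusted p 1.0).

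cd8a (ENSDARG00000044797) encodes a chain of the co-receptor of cytotoxic T cells. It had 5, 4 and 6 counts in the wild type pools and 21, 10 and 29 counts in the mutant pools. This was 0.241, 0.158 and 0.182 CPM against 1.26, 0.338 and 1.08 CPM. Every mutant pool was above every wild type pool, and the mean was 0.194 ± 0.0427 CPM in wild type and 0.890 ± 0.486 CPM in the mutants (SD, n = 3), a ratio of means of 4.59. Counting error alone was wide at this depth: the exact Poisson 95% interval of 6 counts in wild type pool 3 runs from 2.2 to 13.1 and that of 10 counts in mutant pool 2 from 4.8 to 18.4. Such intervals cover counting error only.

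cd8a did not pass the filter on low counts and so was not tested in the main fit. Fitted without the filter its log2 fold change was 2.16 (SE 0.73, 95% interval 0.47 to 3.84), with an unadjusted edgeR p of 0.0185 and an adjusted p of 0.799. In that fit 0% of 26592 genes passed an adjusted p of 0.05, 4.64% had an unadjusted p under 0.05, and 5.57% had all mutant pools above all wild type pools. With libraries left out in turn, the log2 fold change of cd8a was between 2.04 and 2.54 in the 4 fits that kept the gene. These were the fits without wild type pool 1, 2 or 3 and without mutant pool 2. Without mutant pool 1 or mutant pool 3, where its counts were highest, cd8a did not pass the filter. The range leaves out those fits. The second chain gene, cd8b, had at most 0.593 CPM and its groups overlapped.

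The balance of the co-receptors within a library does not depend on library scaling. The log2 ratio of cd8a counts to cd4-1 counts (pseudocount 0.5) was -2.03, -3.24 and -2.71 in the wild type pools and 0.30, -1.67 and -0.78 in the mutant pools. The groups did not overlap. The mean ratio was -2.66 ± 0.60 in wild type and -0.72 ± 0.99 in the mutants (SD, n = 3), a difference of 1.94 on the log2 scale. The two-sided exact permutation p was 0.1, the smallest that 3 against 3 pools can give. Transcript lengths are not in the ratio, so only its difference between libraries can be read.

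**Figure D1:**
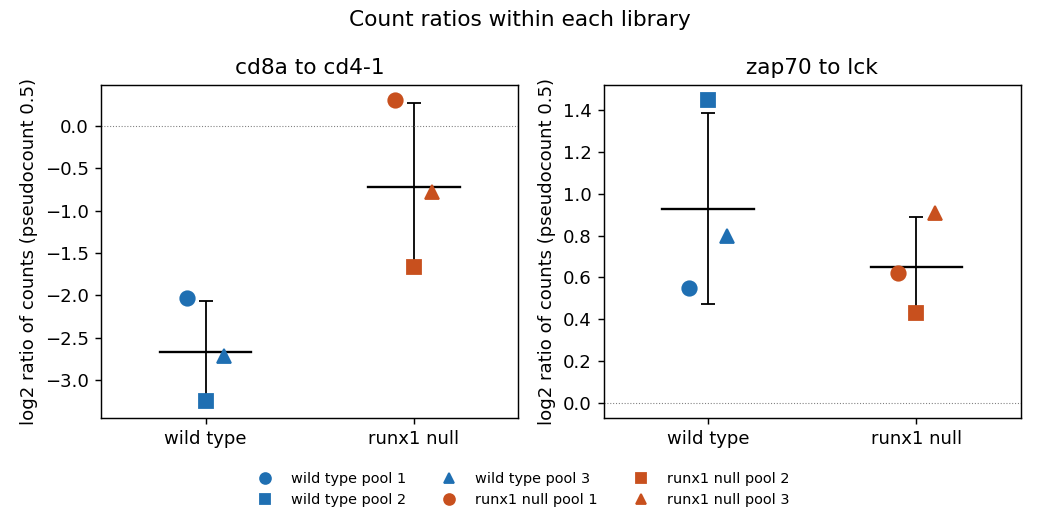
Log2 ratio of counts within each library for cd8a to cd4-1 (left) and zap70 to lck (right), with wild type pools in blue and mutant pools in orange; bars show the mean and SD of 3 pools. The lowest mutant pool of the co-receptor ratio, at -1.67, lies above the highest wild type pool, at -2.03, while the kinase ratios overlap.

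The kinase genes came next in the cascade. lck (ENSDARG00000102525), the Src-family kinase bound to the co-receptors, was at 1.11, 0.870 and 0.973 CPM in wild type. It was at 1.97, 1.25 and 2.41 CPM in the mutant pools. All mutant pools lay above all wild type pools, with means of 0.984 ± 0.12 CPM and 1.88 ± 0.585 CPM (SD, n = 3). The log2 fold change of lck was 0.93 (SE 0.43, 95% interval -0.09 to 1.95; unadjusted edgeR p 0.0687, adjusted p 0.811), so the difference did not pass the threshold.

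zap70 (ENSDARG00000015752), the Syk-family kinase that docks on the phosphorylated receptor, was at 1.64, 2.41 and 1.7 CPM in wild type. It was at 3.05, 1.69 and 4.56 CPM in the mutant pools. Pool 2 of the mutants lay within the wild type range and the other two mutant pools above it. The log2 fold change of zap70 was 0.69 (SE 0.48, 95% interval -0.44 to 1.82; edgeR adjusted p 0.811), and without mutant pool 3 it was 0.30. The log2 ratio of zap70 to lck counts was 0.93 ± 0.46 in wild type and 0.65 ± 0.24 in the mutants (SD, n = 3), a difference of -0.28 with an exact permutation p of 0.5, two-sided.

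Both cytokine receptor genes overlapped between genotypes. il7r (ENSDARG00000078970), the receptor chain for Il7, which in mammals keeps developing and resting T cells alive, was at 1.74, 1.11 and 2.04 CPM in wild type. In the mutant pools it was at 1.62, 1.93 and 2.78 CPM. Its log2 fold change was 0.37 (SE 0.44, 95% interval -0.66 to 1.41; edgeR adjusted p 0.833), which became 0.16 without wild type pool 2, 0.12 without mutant pool 3 and 0.57 without wild type pool 3.

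il2rb (ENSDARG00000075720), the signalling chain that in mammals serves Il2 and Il15 and is prominent on NK cells, was at 2.94, 3.48 and 2.10 CPM in wild type. In the mutant pools it was at 4.37, 3.11 and 4.97 CPM. Wild type pool 2 lay above mutant pool 2. The log2 fold change of il2rb was 0.55 (SE 0.38, 95% interval -0.36 to 1.45; edgeR adjusted p 0.811).

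**Figure D2:**
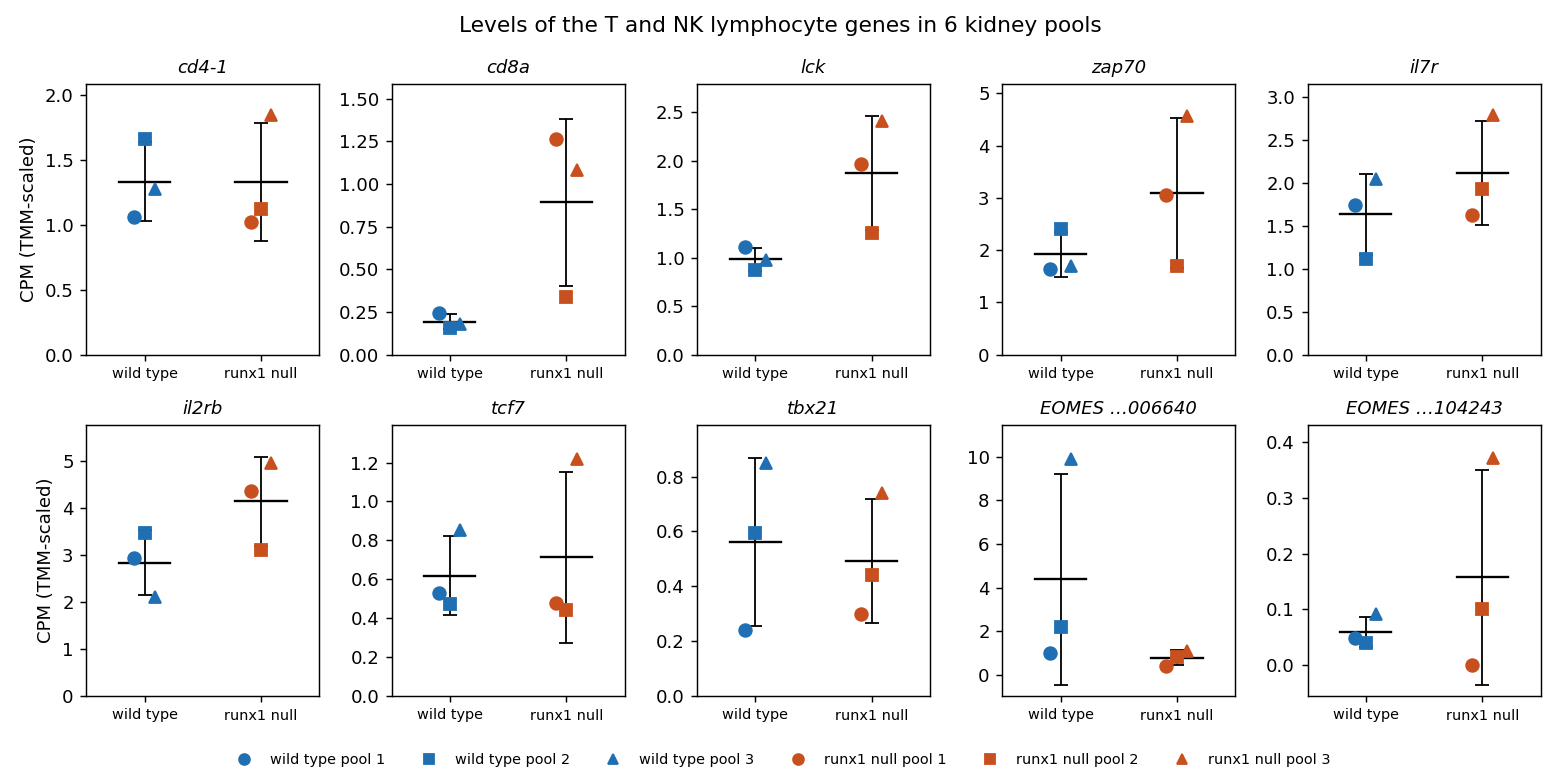
CPM of each matched row in the 6 kidney pools (symbols mark pools 1, 2 and 3; bars show mean and SD of 3 pools; each panel has its own linear axis; the 2 EOMES panels show the last digits of their identifiers). cd8a and lck show no overlap between genotypes, and mutant pool 3 is the highest of the 6 libraries in 7 of the 10 panels.

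The transcription factor genes varied between pools of one genotype as much as between genotypes. tcf7 (ENSDARG00000038672) encodes an HMG-box factor that in mice is needed for early T cells and that also acts in Wnt signalling elsewhere. It was at 0.530, 0.475 and 0.851 CPM in wild type and 0.479, 0.440 and 1.22 CPM in the mutants. Pool 3 was the highest in each genotype, and the log2 fold change of tcf7 was 0.21 (SE 0.59, 95% interval -1.19 to 1.6; edgeR adjusted p 0.931). Without mutant pool 3 it was -0.44, without wild type pool 1 it was 0.10, and without wild type pool 2 it was 0.04. It was 0.51, 0.41 and 0.43 without wild type pool 3, mutant pool 1 and mutant pool 2.

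tbx21 (ENSDARG00000004473), the T-box factor of NK cells and of T cells making interferon gamma, had 5, 15 and 28 counts in wild type and 5, 13 and 20 counts in the mutants. This was 0.241, 0.593 and 0.851 CPM against 0.299, 0.440 and 0.742 CPM, with complete overlap. The log2 fold change of tbx21 was -0.19 (SE 0.63, 95% interval -1.68 to 1.31; edgeR adjusted p 0.943). It was 0.24 without wild type pool 3 and 0.05 without mutant pool 1.

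Eomesodermin, encoded by eomesa and its relatives, is a T-box factor of NK and cytotoxic T cells in mammals. In zebrafish eomesa transcripts are also laid down in the egg, which bears on a dissected kidney because the gonad lies nearby. EOMES ENSDARG00000006640 was at 1.01, 2.21 and 9.91 CPM in wild type and 0.419, 0.812 and 1.11 CPM in the mutants. Wild type pool 3 stood far above the other libraries, with 326 counts where the other wild type pools had 21 and 56. The groups overlapped, since mutant pool 3 was above wild type pool 1. For this row the log2 fold change was -2.47 (SE 0.91, 95% interval -4.63 to -0.31; unadjusted edgeR p 0.0303, adjusted p 0.811), and without wild type pool 3 it was -1.03 (SE 0.66).

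The sum of oocyte transcripts had the same order as this EOMES row within each genotype. Over all 6 libraries the highest and the lowest library were the same for both, but the order between them differed. The 10 matched oocyte genes of 11 listed, among them the egg coat gene zp3b and the germ cell genes dazl and ddx4, summed to 5.30, 149 and 719 CPM in the wild type pools. They summed to 3.77, 29.5 and 217 CPM in the mutant pools. In each genotype the pool with the most oocyte transcripts had the most EOMES, and the pool with the fewest had the least. Between genotypes the order broke. Mutant pool 3 had more oocyte transcripts than wild type pool 2 but less EOMES (1.11 against 2.21 CPM). Mutant pool 2 likewise had more oocyte transcripts than wild type pool 1 but less EOMES (0.812 against 1.01 CPM). Single genes did not all follow the sum. In the first pair ddx4 (1.48 against 1.94 CPM) and figla (0.334 against 0.554 CPM) were lower in mutant pool 3. In the second pair dazl (0.0338 against 0.0965 CPM) was lower in mutant pool 2. All other matched oocyte genes went with the sum in both pairs. In wild type pool 1, 3 of the 10 oocyte genes had no count, and in mutant pool 1, 2 had none. tbx21, tcf7, il7r and EOMES ENSDARG00000104243 were likewise highest in pool 3 of each genotype. Of the 10 matched rows, mutant pool 3 was the highest of its genotype in 9 and wild type pool 3 in 5. Which of these rows are expressed in eggs was not examined. The part of oocyte RNA in these levels was not tested.

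**Figure D3:**
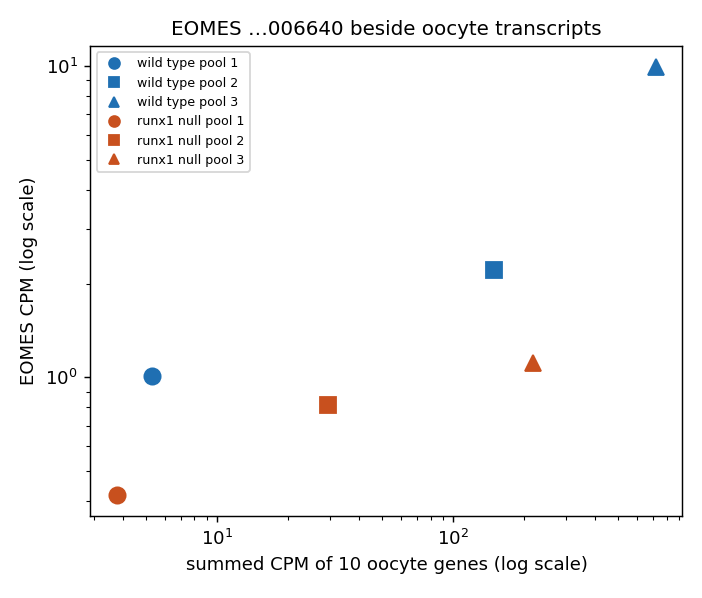
CPM of EOMES ENSDARG00000006640 against the summed CPM of 10 oocyte genes in the 6 libraries, both on log axes. Wild type pool 3 is highest on both, at 9.91 CPM and 719 CPM, and mutant pool 1 lowest on both, at 0.419 CPM and 3.77 CPM. The order differs between them: mutant pool 3, at 1.11 CPM and 217 CPM, has less EOMES than wild type pool 2, at 2.21 CPM and 149 CPM.

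The second row, EOMES ENSDARG00000104243, had 1, 1 and 3 counts in wild type and 0, 3 and 10 in the mutants. Only mutant pool 3 was above 3 counts, which corresponds to 0.0912 to 0.18 CPM over the 6 libraries. The row did not pass the filter on low counts and no direction is read from it.

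Of the 10 matched rows, 8 passed the filter, and none of the 8 passed an adjusted p of 0.05 in edgeR, where 0% of the 18864 genes tested passed. At an unadjusted p under 0.05 there was 1 row, the larger EOMES row, where 5.23% of all genes tested had such a p. In the DESeq2 Wald test, 0 of the 8 rows and 0.561% of the 18720 genes with an adjusted p passed. Only lck, 1 of the 8 rows, kept its genotypes apart, with mutants higher, where 6.24% of all genes tested had every mutant pool above every wild type pool and 6.24% had the opposite. The median log2 fold change of the 8 rows was 0.29, with 5 above 0 and 3 below, and that of all genes tested was -0.03. A p that misses the threshold does not show that levels were alike: the 95% intervals of cd4-1, tcf7 and tbx21 reach past 1 in both directions on the log2 scale.

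**Figure D4:**
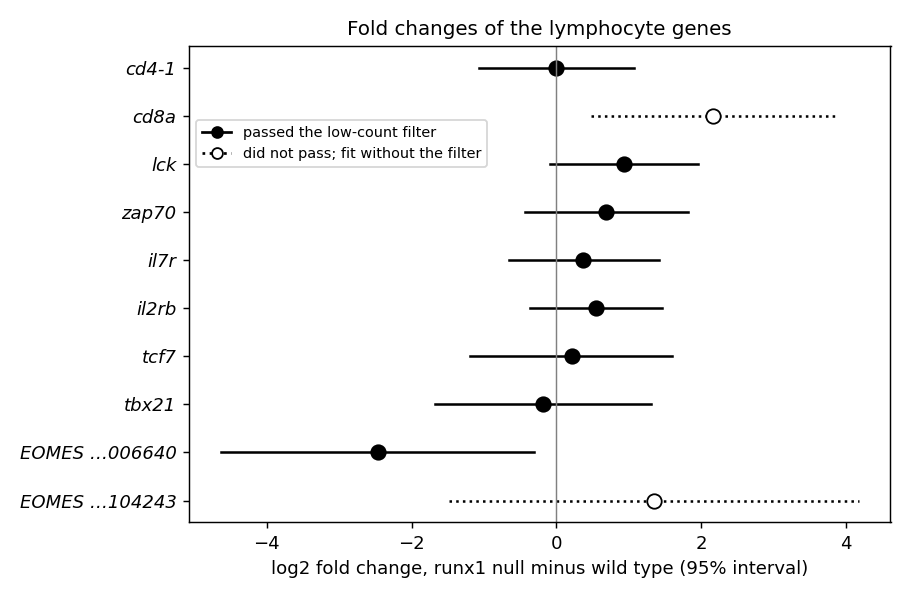
Log2 fold change (mutant minus wild type) with its 95% interval from edgeR for the 10 matched rows; filled points passed the filter on low counts and open points, with dotted intervals, come from the fit without it. Intervals of cd8a and the larger EOMES row lie to one side of 0 before any adjustment for the number of genes, and those of the other rows cross it.

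The level of other leukocyte transcripts was set beside these genes. ptprc, the gene of the phosphatase Cd45 found on white blood cells in general, was at 39.4, 60.9 and 37.7 CPM in wild type and 25.3, 21 and 29.5 CPM in the mutants. All mutant pools were below all wild type pools, with a log2 fold change of -0.86 (SE 0.28; unadjusted edgeR p 0.0196, adjusted p 0.811). Expressed per 1000 ptprc counts of the same library, lck was at 28.2, 14.3 and 25.8 in wild type and 78.0, 59.5 and 81.8 in the mutants. On that scale il2rb was at 74.7, 57.1 and 55.7 against 173, 148 and 169. The co-receptor gene cd4-1 was at 26.9, 27.3 and 33.9 against 40.2, 53.1 and 62.9.

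On the ptprc scale 6 of the 10 rows (lck, zap70, cd4-1, cd8a, il7r and il2rb) had every mutant pool above every wild type pool, and the other 4 overlapped. Because ptprc itself was lower, 34.3% of all genes tested did the same, and 0.482% did the opposite. The gene sets differ: cd8a, among the 6, and EOMES ENSDARG00000104243, among the 4, did not pass the filter and are not among the genes tested. This scale was chosen after the values were seen, so it is given without a test.

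Markers of other blood and kidney cells also differed between libraries. The summed CPM of 8 B lymphocyte genes of 12 listed ran from 35.0 to 70.8 in wild type and from 23.8 to 141 in the mutants, and in mutant pools 1 and 2, 2 of these genes, cd79b and pax5, had no count. The immunoglobulin gene ighm made up 114 of the 141 CPM in mutant pool 3, and the other 7 genes summed to between 29.2 and 49.7 CPM in wild type and between 21.4 and 32.3 CPM in the mutants. The 8 neutrophil genes of 10 listed summed to between 360 and 1642 CPM in wild type and between 323 and 616 in the mutants. Within that list the granule genes lyz and npsn had every mutant pool below every wild type pool (log2 fold changes -3.14, SE 0.73, and -3.23, SE 0.59; edgeR adjusted p 0.782 and 0.599, DESeq2 adjusted p 0.0022 and 3.85e-05). The other 6 overlapped, and mmp9 was at 229 CPM in mutant pool 2 against 3.47 and 3.11 CPM in the other mutant pools. Of all genes tested, 6.24% had every mutant pool below every wild type pool, and DESeq2 called 0.561% of the genes with an adjusted p. Every mutant pool was also lower for 3 of 6 thrombocyte, 1 of 9 macrophage and 1 of 6 erythroid genes. lyz, npsn and mmp9 were named outside the rules for naming genes. Sums were 362 to 517 and 367 to 419 CPM for 9 macrophage genes of 12 listed, and 805 to 1651 and 415 to 564 CPM for 6 thrombocyte genes of 8 listed. The 6 erythroid genes of 8 listed summed to between 67404 and 119054 CPM in wild type and between 53288 and 64606 CPM in the mutants. The 8 kidney tubule genes of 11 listed summed to between 369 and 2819 CPM in wild type and between 1841 and 3852 CPM in the mutants, with wild type pool 1 the lowest and mutant pool 3 the highest. Their part in the levels of lck, zap70 and cd8a was not tested.

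The other genes of the T cell pathways were read from 6 lists of 116 entries, of which 91 matched 1 row each and 71 passed the filter. None of the 71 passed in edgeR. At an unadjusted p under 0.05 there were 6 with a positive and 3 with a negative log2 fold change, together 12.7%, where 5.23% of all genes tested had such a p. The genotypes did not overlap for 12 of the 71 with the mutants higher and 6 with them lower, together 25.4%, where 12.5% of all genes tested did not overlap. The lists were written with earlier results of these libraries known, and their genes share cells, so this is a description. The DESeq2 Wald test called 3 of the 71, lat, il2rgb and rag1, or 4.23%, where it called 0.561% of the genes with an adjusted p. In simulated data that test called more unchanged genes than its threshold allows. The filter on low counts bears on these shares. Among the genes without overlap, gzmk passed it through the mutant pools alone and rag1, also called by DESeq2, through the wild type pools alone. gzma and satb1a, among the 12, fell short of it in wild type pool 1, with 6 and 7 counts.

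**Figure D5:**
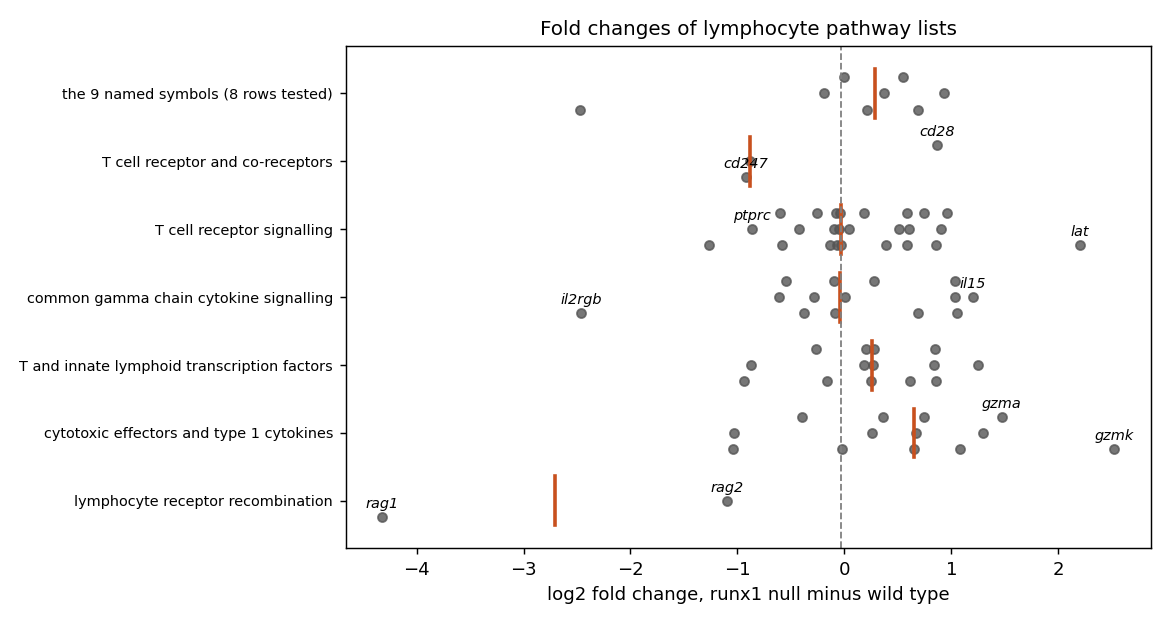
Log2 fold change (mutant minus wild type) of each tested gene in the 6 pathway lists and of the 8 tested rows; orange bars are list medians and the dashed line is the median of all genes tested, -0.03. Medians run from -2.71 for the recombination list, which has 2 tested genes, to 0.65 for the cytotoxic effector list.

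Among receptor chains and co-receptors, 10 of 16 listed genes, cd3e, cd3g and trac among them, matched no row by name. Their levels are not known here. Of the 6 that matched, 3 could be tested. cd247, the zeta chain that Lck phosphorylates and Zap70 binds, was at 7.28, 3.24 and 6.11 CPM in wild type and 2.15, 3.92 and 2.71 CPM in the mutants (log2 fold change -0.92, SE 0.44, edgeR adjusted p 0.811). In mammals NK cells use this chain too. The costimulatory receptor gene cd28 was at 0.627, 0.514 and 0.699 CPM in wild type and 1.14, 0.880 and 1.37 CPM in the mutants, without overlap (log2 fold change 0.87, SE 0.43, edgeR adjusted p 0.811). For cd4-2.2, of a second Cd4 family, it was -0.88 (SE 0.72, edgeR adjusted p 0.811). cd247l had at most 0.667 CPM and was not tested.

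In the receptor signalling list 25 of 31 genes were tested, with a median log2 fold change of -0.03. The most abundant were regulators that many leukocytes share. csk, the kinase that restrains Lck, had a log2 fold change of -0.13 (SE 0.24), ptpn22, a phosphatase acting on the same kinases, one of -0.42 (SE 0.24), and grap2b, an adaptor, one of -0.60 (SE 0.27). None of them passed (edgeR adjusted p 0.811 to 0.885).

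lat, the membrane adaptor phosphorylated by Zap70, was named after its values were seen. It was at 1.11, 0.791 and 0.578 CPM in wild type and 4.37, 3.38 and 3.60 CPM in the mutants, a separation wider than the spread within either genotype. Its log2 fold change was 2.20 (SE 0.42; unadjusted edgeR p 0.00132, adjusted p 0.638; DESeq2 adjusted p 0.00272). In mammals LAT is also found in platelets and mast cells, so lat does not mark T cells alone.

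Cytokine signalling through the common gamma chain held 14 tested genes of 18 listed, with a median of -0.04. The kinase genes jak1 and jak3 had log2 fold changes of -0.09 (SE 0.24) and -0.61 (SE 0.34), and cish, a feedback inhibitor, one of -0.38 (SE 0.39). il4r.1, a receptor chain for Il4 and Il13, was at 28.6, 19.2 and 15.5 CPM in wild type and 33.7, 61.7 and 33.7 CPM in the mutants (log2 fold change 1.03, SE 0.37). None of these passed (edgeR adjusted p 0.811 to 0.929).

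The gamma chain itself has 2 zebrafish genes, which did not share a pattern. il2rga was at 6.22, 6.01 and 5.02 CPM in wild type and 5.39, 5.82 and 4.86 CPM in the mutants (log2 fold change -0.10, SE 0.29, edgeR adjusted p 0.931). il2rgb was at 11.2, 7.0 and 5.23 CPM against 1.32, 1.56 and 1.37 CPM (log2 fold change -2.46, SE 0.41; edgeR adjusted p 0.599, DESeq2 adjusted p 0.000198). The ligand gene il15, whose product acts on NK cells through Il2rb, was at 2.41, 4.07 and 3.31 CPM in wild type and 10.5, 5.28 and 6.82 CPM in the mutants (log2 fold change 1.2, SE 0.40, edgeR adjusted p 0.811). il2rga, il2rgb and il15 were named after their values were seen, and the difference between the gamma chain genes was not tested.

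Of 14 tested transcription factors, 10 had a positive log2 fold change, with a median of 0.26. The most abundant were ikzf1, a zinc finger factor of lymphoid development (0.20, SE 0.31), zbtb16a, whose mammalian relative marks innate-like T cells (0.18, SE 0.44), id3 (-0.16, SE 0.48) and id2a, whose mammalian relative is needed for NK cells (0.61, SE 0.54). The range over the list was -0.94 to 1.25, and none passed (smallest edgeR adjusted p 0.811).

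In the list of cytotoxic effectors and cytokines 13 of 27 genes could be tested, with a median log2 fold change of 0.65, and 4 of the 13, or 30.8%, had every mutant pool above every wild type pool, where 6.24% of all genes tested did. The most abundant were the perforin gene prf1.5 (log2 fold change 0.26, SE 0.61), the NK-lysin gene nkl.2 (1.08, SE 0.61), prf1.6 (-1.04, SE 0.60) and the granzyme gene gzm3.4 (0.67, SE 0.42). gzmk and gzma, named after their values were seen, encode granule proteases. gzmk was at 0.0482, 0.277 and 0.213 CPM in wild type and 1.44, 0.575 and 1.22 CPM in the mutants (log2 fold change 2.52, SE 0.70, unadjusted edgeR p 0.00951, adjusted p 0.811). gzma was at 0.289, 0.593 and 0.547 CPM against 2.15, 0.677 and 1.22 CPM (log2 fold change 1.47, SE 0.59, edgeR adjusted p 0.811). The filter on low counts bears on the 4 of 13. gzmk had 1, 7 and 7 counts in wild type and 24, 17 and 33 in the mutants, so it passed through its mutant pools alone. gzma had 6, 15 and 18 counts in wild type and 36, 20 and 33 in the mutants. Its wild type pools alone would not have passed it, since pool 1 fell short. Matched genes that did not pass all overlapped between genotypes. Without the filter their log2 fold changes ran from -1.77 for prf1.3 to 4.13 for tnfa, whose counts lay almost wholly in mutant pool 2. The median of 0.65 leaves them out. Perforin, granzyme and NK-lysin genes form families of similar sequence, so the division of reads among them is uncertain.

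Recombination genes mark lymphocytes that are still assembling their receptors. rag1 was at 0.820, 3.36 and 1.76 CPM in wild type and 0.0598, 0.0338 and 0.185 CPM in the mutants (log2 fold change -4.32, SE 0.86; edgeR adjusted p 0.638, DESeq2 adjusted p 0.00190). It had 17, 85 and 58 counts in wild type and 1, 1 and 5 in the mutants. It thus passed the filter on low counts through its wild type pools alone, where it was high. rag2 was at 0.289, 1.54 and 0.821 CPM against 0.0598, 0.541 and 0.593 CPM, with overlap (log2 fold change -1.10, SE 0.87, edgeR adjusted p 0.811). dntt had no count in 4 of the 6 libraries, at most 0.0791 CPM. B lymphocyte precursors use the same recombination genes, and in zebrafish T cells assemble their receptors in the thymus, so these levels do not single out T cells. Of the 5 tested genes on the B lymphocyte list, 1 had a positive and 4 a negative log2 fold change, with a median of -0.43, and all 5 overlapped between genotypes. cd79a, cd79b and pax5 of that list did not pass the filter. Fitted without it, their log2 fold changes were -2.45 (SE 1.09), -5.99 (SE 1.12) and -4.08 (SE 1.49), with edgeR adjusted p of 0.692 to 0.799. cd79b had 10, 46 and 38 counts in wild type and 0, 0 and 1 in the mutants, without overlap. cd79a and pax5 overlapped. The part of B lymphocytes in the rag1 difference was not tested.

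Profiles over the 6 libraries were compared by the root mean square distance between log2 CPM centred on each gene's mean, among 13789 tested genes whose mean log2 CPM was 1 or more. The 5 nearest to lck were ACAA2, CAVIN2, GLOD5, ENSDARG00000092422 and pebp1, at distances of 0.11 to 0.13. ACAA2, a mitochondrial enzyme of fatty acid oxidation, was at 26.3, 18.4 and 17.8 CPM in wild type and 40.1, 23.1 and 47.9 CPM in the mutants. None of these 5 is on the lymphocyte lists. The floor on mean log2 CPM kept many genes of those lists out of the search, among them cd28, cd4-1, tcf7, tbx21, gzma and gzmk. Their likeness to lck was therefore not measured. The 5 nearest to EOMES ENSDARG00000006640 were ENSDARG00000105295, bmb, RRM2, prr11 and inka1b, at 0.42 to 0.45. None of these 5 is on the oocyte list. The same floor kept bmp15, gdf9, dazl and ddx4 of that list out of the search, and figla was not tested. Their likeness to this EOMES row was therefore not measured. RRM2, a subunit of the enzyme that makes DNA precursors, was at 26.4, 77.2 and 183 CPM in wild type and 20.7, 40.7 and 35.7 CPM in the mutants. bmb, a gene whose egg-supplied product is needed for nuclear fusion in zebrafish embryos, was at 2.07, 4.03 and 24.7 CPM in wild type and 1.02, 2.13 and 5.15 CPM in the mutants.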

How the data were processed

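Per the submitters' processing notes, STAR 2.5.26, RSEM, DESeq2 and the build GRCz10 were named, with no role or order. Annotation and strand use are not given in the sources used here. The authors deposited expected counts per gene, not scaled to depth, in 1 table per library; between 12.7% and 14.9% of nonzero values were not whole. The design foresaw rounding, and values were rounded before fitting. Genes were tested across the whole table in edgeR 4.0.16 (R 4.3.3) by the quasi-likelihood F test, with filterByExpr at a minimum count of 10, TMM scaling, genotype as sole term and Benjamini-Hochberg adjustment at 0.05. SE is the size of a log2 fold change divided by the square root of F, and 95% intervals use the total degrees of freedom. Ratios of counts were tested by exact permutation. Alternatives included DESeq2 1.42.0 (Wald test, no independent filtering). Both tools were tested on simulated data with known changes, where DESeq2 called more unchanged genes than its threshold allows.

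Symbols came from a gene name table and from synonyms in an NCBI RefSeq list; 26433 of 32266 identifiers had a symbol. Genes named by rule were the 9 symbols, the 4 most abundant genes of each pathway list, and the 5 nearest profiles to lck and to the tested EOMES row. Others, among them lat, il2rgb, il15, gzmk, gzma, lyz, npsn and mmp9, were named outside these rules, several after their values were seen. The members, lists and tests were chosen with earlier results of these data known. Coordinates and sequences were not used here.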

Additional observations from a re-analysis of the deposited data

How the results depend on the processing

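Over all genes tested, 0 passed in every edgeR alternative and in the 6 fits that left out one library (range 0 to 0, with 612 to 1437 genes at an unadjusted p under 0.05), and 105 passed in the DESeq2 Wald test. None of the matched rows passed in any alternative that tested them. DESeq2 tested 8 of the 10 rows, without cd8a and EOMES ENSDARG00000104243. From 0 to 2 of the rows tested had an unadjusted p under 0.05 when one library was left out. The pathway lists, whose count was added after seeing the data, went from 0 to 3 in DESeq2 and stayed at 0 elsewhere. Over the alternatives of single rows, 97 of 103 kept direction. The 97 include 9 of 12 for cd4-1, whose main log2 fold change of -0.00 gave hardly a direction to keep. They also include 4 for cd8a, none of them without mutant pool 1 or mutant pool 3. The side of the threshold never changed. No gene passed in any edgeR setting, and none of the 8 rows tested in DESeq2 passed there. These fits share most of their libraries and counts, so they are not independent checks. The other 6 of the 103 changed sign, each with one library left out. cd4-1 ran from -0.32 to 0.18 (0.18 without wild type pool 2, 0.15 without mutant pool 1, 0.08 without mutant pool 2). tcf7 ran from -0.44 to 0.51 and tbx21 from -0.60 to 0.24 (0.05 without mutant pool 1). The causes were not tested. lck stayed between 0.71 and 1.12, and EOMES ENSDARG00000006640 between -2.93 and -1.03. With libraries left out, the cd8a to cd4-1 difference ran from 1.44 to 2.42 and the zap70 to lck difference from -0.47 to -0.02; no split of so few pools can pass 0.05.

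Same-numbered pools hold different fish, and their deviations correlated at 0.074, -0.363 and 0.446 for pools 1, 2 and 3, without a common sign. Wild type pool 3 alone had its closest mutant pool under the same number. So few correlations cannot exclude a shared batch or order of processing, which was not tested. With the replicate block 0 genes and 0 of the 8 rows passed, and the ratio differences were 1.94 and -0.28. Precision is limited by the few pools and their spread and by low counts: cd8a, tcf7 and tbx21 had between 4 and 33 counts in any library.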
